A study of Homo sapiens with 4 samples.

Results

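The MYC family and its MAX network were followed by 10 genes matched by symbol: MYC, MYCL, MYCN, MAX, MXD1, MXI1, MXD3, MXD4, MNT and MGA. All 10 were found among the 35979 gene symbols of the tables, each with 1 row, and all 10 had a mean normalized count of at least 20, a level that 14940 symbols reached. Poly(A) RNA had been sequenced from the human cell line NCI-H1048, established from small cell lung cancer, which the study's title assigns to the tuft cell-like type. Guide RNAs (gRNAs) directed a knockout to COLCA2 in 2 libraries, which used different guides, and to POU2F3 in 1 library, and 1 library with a non-targeting gRNA served as the control. The labels give the genotypes as COLCA2 knockout, POU2F3 knockout and WT, with no further treatment. POU2F3 is the transcription factor that specifies tuft cells, and the study concerns COLCA2 as one of its co-activators. Whether the cells were clones or pools, and the time after the guides were given, are not given in the sources used here. Single libraries stand for the POU2F3 and non-targeting groups, so the difference between the COLCA2 guides was the only spread within a group. The ratios below carry no test, and a count test that draws on that spread alone follows them.

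MYC, MYCL and MYCN are basic helix-loop-helix leucine zipper transcription factors that bind DNA as dimers with MAX, mostly at the E-box CACGTG, and drive genes of growth, ribosome production and metabolism. MXD1, MXI1 (also called MXD2), MXD3, MXD4 and MNT compete for MAX and recruit SIN3 and histone deacetylases to the same sites. MGA also binds MAX and is the scaffold of the Polycomb complex PRC1.6. In small cell lung cancer MYC, MYCL or MYCN is amplified in a part of the tumours, usually 1 of them at a time, and MAX is inactivated in others.

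The E-box was searched as CACGTG in RefSeq promoter windows (GRCh38.p14) reaching from 250 bases before to 50 bases after a gene's start. It reads the same on both strands. The windows covered 9 of the 10 genes, all but MYC, with 14 starts, and 2 of the 14, those of MNT and MXD4, held the motif, beside 7.26% of all 35116 windows. Both stretches are shown because MNT and MXD4 are themselves E-box-binding antagonists of MYC. They are written 5′ to 3′ on the gene's strand (minus), with the E-box in capitals. The MNT stretch is chr17:2401208-2401293 and the MXD4 stretch is chr4:2262302-2262359.
MNT: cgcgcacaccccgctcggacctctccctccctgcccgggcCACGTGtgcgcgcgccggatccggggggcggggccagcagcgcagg
MXD4: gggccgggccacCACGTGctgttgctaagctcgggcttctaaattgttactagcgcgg
The octamer ATGCAAAT, the sequence bound by POU2F factors, and its reverse complement ATTTGCAT were in none of the 14 windows, beside 1.77% of all windows. These matches describe the letters in the windows and measure no binding.

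The reads assigned to genes ranged from 21587741 to 29632382 per library, and mitochondrial genes took 3.96% to 4.47% of them. The POU2F3 transcript stood at 14602 normalized counts in the control, 3677 and 2351 with COLCA2 guides 1 and 2, and 1449 with the POU2F3 guide. The COLCA2 transcript stood at 5585, 3119, 3541 and 1393 in the same order. Of 10 tuft markers 7 passed the minimum, among them the targeted gene POU2F3. All 7 were lower than the control in the 3 gene-targeted libraries, where 35.3% of all genes were. The mean counts of TRPM5, CHAT and PTGS1 over the libraries were below the minimum. Among neuroendocrine markers NEUROD1 and CHGA were below the minimum. INSM1 had 118.4 normalized counts in the control, 23.8 and 24.7 with COLCA2 guides 1 and 2, and 35.3 with the POU2F3 guide, and SYP had 74.5, 60.1, 48.2 and 52.0. The summed normalized count of 9 leukocyte, endothelial and fibroblast markers was 1324 in the control and 1212 to 1492 in the others, with CD3E at 0 in every library and most of the sum in COL1A1. Within that sum the endothelial marker VWF had 43.9 in the control and 15.9 to 21.2 in the others, and the fibroblast marker PDGFRB had 22.9 and 79.7 to 186.6. The part of these marker differences in the values below was not tested.

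None of the 10 genes lay 2-fold apart with the POU2F3 guide, where 9.77% of all genes did, with both COLCA2 guides, where 7.81% did, or between the POU2F3 library and both COLCA2 libraries, where 1.37% did. MYC, MYCL and MXD3 were lower in all 3 gene-targeted libraries than in the control, at 63.6% to 75.4%, 58.7% to 70.7% and 60.7% to 73.8% of its level. MXD4 and, by less, MAX were above it in all 3, and so was MYCN, by least with COLCA2 guide 1. Among the rest, MXD1 was below the control in all 3 and lowest with the POU2F3 guide. MGA was lower with the COLCA2 guides and not with the POU2F3 guide, and MNT and MXI1 lay on both sides of the control. In RNA from bulk cells, fewer cells that express a gene and less of its RNA per cell cannot be told apart.

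**Figure D1:**
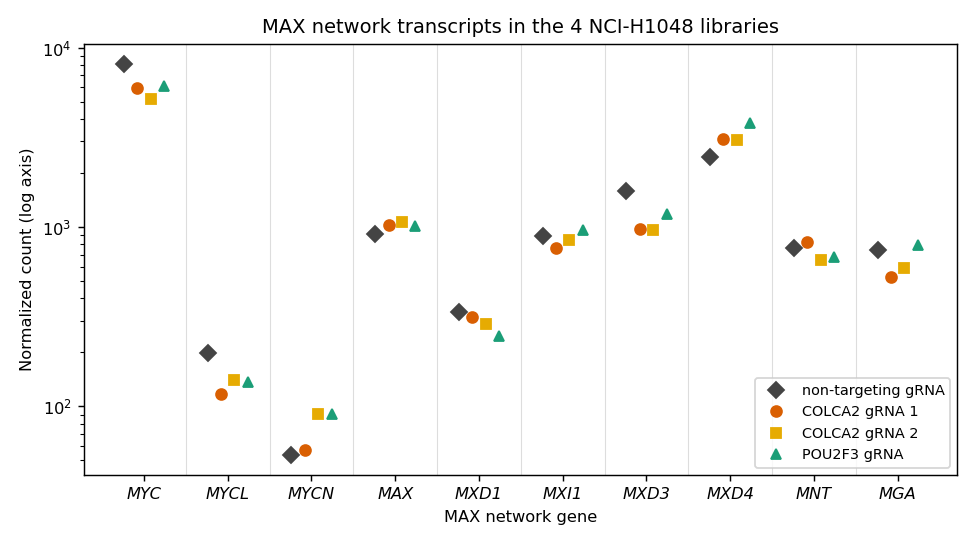
Normalized counts (log axis) of the 10 MAX network genes in the control, the 2 COLCA2 gRNA libraries and the POU2F3 guide library, with 1 point per library. MYC has the highest counts, from 5188 to 8152, and MYCN the lowest, from 53.5 to 90.6.

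Among the MYC genes, MYC itself (ENSG00000136997, chromosome 8, 127735434 to 127741434, plus strand, GRCh38) made up nearly all of the family's transcripts. Its normalized count was 8152 in the control, 5952 with COLCA2 guide 1, 5188 with COLCA2 guide 2 and 6148 with the POU2F3 guide. The control was thus the highest, and the POU2F3 value lay above both COLCA2 values. Relative to the control, MYC stood at 73.0% with COLCA2 guide 1 and 63.6% with COLCA2 guide 2, a mean log2 ratio of -0.55 ± 0.14 (SD, n = 2). With POU2F3 gRNA it stood at 75.4%, and the 95% interval was 73.1% to 77.8%. All intervals here are exact (Clopper-Pearson) and reflect counting error alone. These log2 ratios add a pseudocount of 1 to each normalized count, which slightly understates the change of low genes.

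MYCL (ENSG00000116990, chromosome 1, 39895426 to 39902256, minus strand), the paralog often amplified in neuroendocrine small cell lung cancer, had 209 reads in the control, 113 and 120 with COLCA2 guides 1 and 2, and 163 with the POU2F3 guide. The normalized counts were 199.6, 117.2, 141.1 and 136.8 in the same order, so the control was again the highest and the other 3 lay close together. MYCL stood at 58.7% (interval 46.3% to 74.1%) and 70.7% (56.0% to 88.9%) of the control with the COLCA2 guides, and at 68.6% (55.5% to 84.5%) with the POU2F3 guide. The mean log2 ratio with the COLCA2 guides was -0.63 ± 0.19 (SD, n = 2).

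MYCN (ENSG00000134323, chromosome 2, 15940564 to 15947007, plus strand), the paralog best known from neuroblastoma, was the lowest of the 10. It had 56 reads in the control, 55 with COLCA2 guide 1, 77 with COLCA2 guide 2 and 108 with the POU2F3 guide. The normalized counts were 53.5, 57.0, 90.6 and 90.6, which puts COLCA2 guide 1 beside the control and the other pair above both. The COLCA2 guides lay apart: MYCN stood at 107% with COLCA2 guide 1 (interval 72.1% to 158%) and 169% with COLCA2 guide 2 (118% to 243%). The mean log2 ratio of 0.42 ± 0.47 (SD, n = 2) was smaller than its spread.

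Levels of different genes were set against each other only per length, as the normalized count per kb of the longest annotated transcript. On that scale MYC reached 3446 per kb in the control, against 61.3 for MYCL and 20.6 for MYCN. MYC made up 97.7% of the family's summed level there, 97.8% and 96.6% with COLCA2 guides 1 and 2, and 97.1% with the POU2F3 guide. MYCL ranked above MYCN in all 4 libraries, though with COLCA2 guide 2 the levels were 43.3 and 34.8 per kb. The summed family level was 73.0%, 64.4% and 75.8% of the control with COLCA2 guide 1, COLCA2 guide 2 and the POU2F3 guide, values that follow MYC.

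MAX (ENSG00000125952, chromosome 14, 65006174 to 65102695, minus strand), the shared partner, differed little between libraries. Its normalized count was 915.8 in the control, 1033 and 1063 with COLCA2 guides 1 and 2, and 1019 with the POU2F3 guide. All 3 gene-targeted libraries were above the control, at 113%, 116% and 111%. The mean log2 ratio with the COLCA2 guides was 0.19 ± 0.030 (SD, n = 2), of which scaling to library totals left 0.13. MAX overlaps FNTB by 56479 bp on the opposite strand, and use of the strand in counting is not given in the sources used here. MYC exceeded MAX 11.9-fold per kb in the control and 7.69-fold, 6.51-fold and 8.05-fold with COLCA2 guide 1, COLCA2 guide 2 and the POU2F3 guide. With the median transcript length in place of the longest, these quotients were 4.75, 3.07, 2.60 and 3.22, again highest in the control.

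**Figure D2:**
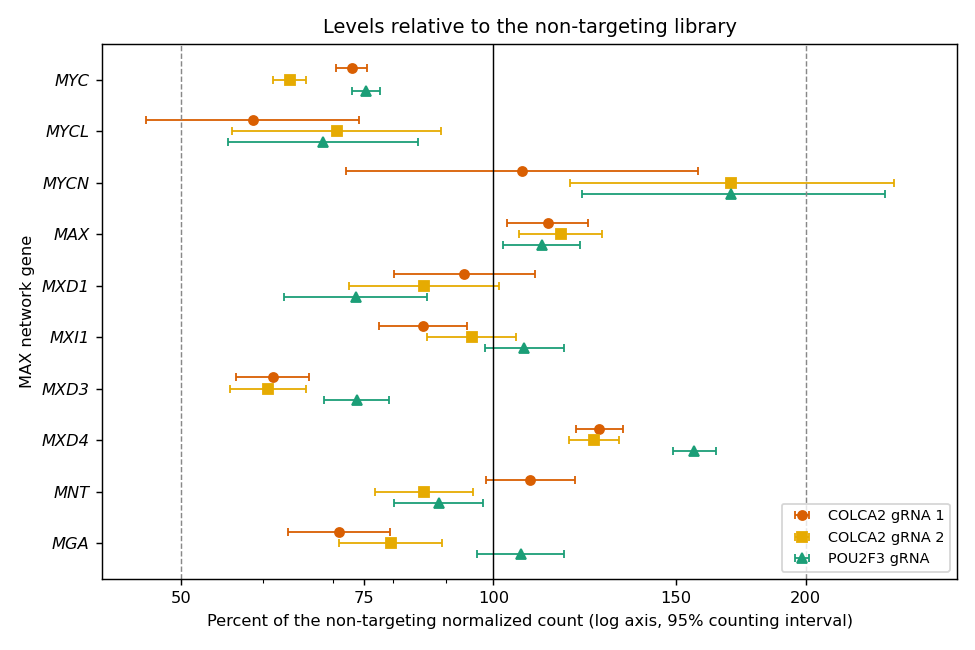
Each gene's normalized count as a percent of its value in the control (log axis), for COLCA2 guide 1, COLCA2 guide 2 and the POU2F3 guide, with 95% counting intervals and dashed lines at 2-fold. MYC, MYCL, MXD1 and MXD3 lie left of 100% in all 3 libraries and MYCN, MAX and MXD4 right of it, and no point reaches a dashed line.

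The antagonists lay on both sides of the control. MXD3 (ENSG00000213347, chromosome 5, 177301461 to 177312757, minus strand), the MXD gene that is usually expressed in dividing cells, had normalized counts of 1594 in the control, 976.6 and 966.7 with COLCA2 guides 1 and 2, and 1177 with the POU2F3 guide. The control was clearly apart from the other 3, and the COLCA2 guides nearly coincided. MXD3 stood at 61.3% (interval 56.5% to 66.4%) and 60.7% (55.7% to 66.0%) of the control with the guides. With the POU2F3 guide it stood at 73.8% (68.7% to 79.3%). The mean log2 ratio with the guides was -0.71 ± 0.010 (SD, n = 2), and scaling to library totals made it -0.78. The guides lay closer together than their counting intervals are wide, so this SD understates the uncertainty. The gene overlaps PRELID1 by 3186 bp on the opposite strand. PRELID1 had a normalized count of 4902 in the control, 6104 and 5639 with the COLCA2 guides and 4507 with the POU2F3 guide, and RAB24, which overlaps MXD3 by 2284 bp on the same strand, had 741.0 in the control and 760.4 to 805.6 in the others. Their part in the MXD3 values was not tested.

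MXD4 (ENSG00000123933, chromosome 4, 2247432 to 2262294, minus strand), an MXD gene associated with resting and differentiated cells, was on the other side. Its normalized count was 2447 in the control, 3097 and 3061 with COLCA2 guides 1 and 2, and 3823 with the POU2F3 guide, so the libraries fell into 3 separate levels with the guides side by side. MXD4 stood at 127% (interval 120% to 133%) and 125% (118% to 132%) of the control with the guides. With the POU2F3 guide it stood at 156% (149% to 164%). The mean log2 ratio with the guides was 0.33 ± 0.012 (SD, n = 2), of which scaling to library totals left 0.26. Here too the guides lay closer together than their counting intervals are wide, so the SD understates the uncertainty. The E-box shown above lies 238 bases before the RefSeq start that anchors its window, which is not the outermost start given here.

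As a pair singled out after their values were seen, MXD4 and MXD3 shifted against each other. Reads of MXD4 exceeded those of MXD3 by 1.54-fold in the control (interval 1.44 to 1.63). The same quotient was 3.17 (2.95 to 3.42) with COLCA2 guide 1, 3.17 (2.93 to 3.43) with COLCA2 guide 2 and 3.25 (3.06 to 3.45) with the POU2F3 guide. Relative to the control the quotient was thus 2.06-fold, 2.06-fold and 2.12-fold higher. These values share the control's quotient of 1.54, so their common direction is partly built in. Picking a gene that was higher and a gene that was lower widens such a quotient in itself, and other gene pairs were not examined. The quotient is taken within a library, so neither the scaling of libraries nor transcript length bears on its change relative to the control.

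MXD1 (ENSG00000059728, chromosome 2, 69897688 to 69942945, plus strand), which is induced when many cell types differentiate, had normalized counts of 336.1 in the control, 315.2 and 288.1 with COLCA2 guides 1 and 2, and 247.6 with the POU2F3 guide. It was lowest with the POU2F3 guide, at 73.7% of the control (interval 62.9% to 86.2%). With the COLCA2 guides it stood at 93.8% and 85.7%, and both intervals included 100%. MXD1 overlaps SNRNP27 by 7888 bp on the same strand, and SNRNP27 was likewise lower than its control count of 1595, at 1098, 955 and 923.3, whose part in the MXD1 values was not tested.

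MXI1 (ENSG00000119950, chromosome 10, 110207605 to 110287365, plus strand), a known target of hypoxia-inducible factors, ranged from 764.1 with COLCA2 guide 1 to 956.9 with the POU2F3 guide. The control count of 893.8 lay between them. MNT (ENSG00000070444, chromosome 17, 2384060 to 2401118, minus strand), the antagonist present in most cells whether or not they divide, had 763.9 in the control, 829.4 and 655.1 with COLCA2 guides 1 and 2, and 676.5 with the POU2F3 guide. The guides lay on opposite sides of the control, and the mean log2 ratio of MNT, -0.052 ± 0.24 (SD, n = 2), was smaller than its spread.

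MGA (ENSG00000174197, chromosome 15, 41621224 to 41773081, plus strand) set the COLCA2 libraries apart from the control and the POU2F3 library. Its normalized count was 745.8 in the control and 792.3 with the POU2F3 guide, but 529.8 and 593.9 with COLCA2 guides 1 and 2. Both guides were below the other pair of libraries, but neither count test given below called MGA in any comparison. MGA stood at 71.0% and 79.6% of the control with the guides, a mean log2 ratio of -0.41 ± 0.12 (SD, n = 2), and at 106% with the POU2F3 guide, where the interval of 96.5% to 117% included 100%.

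**Figure D3:**
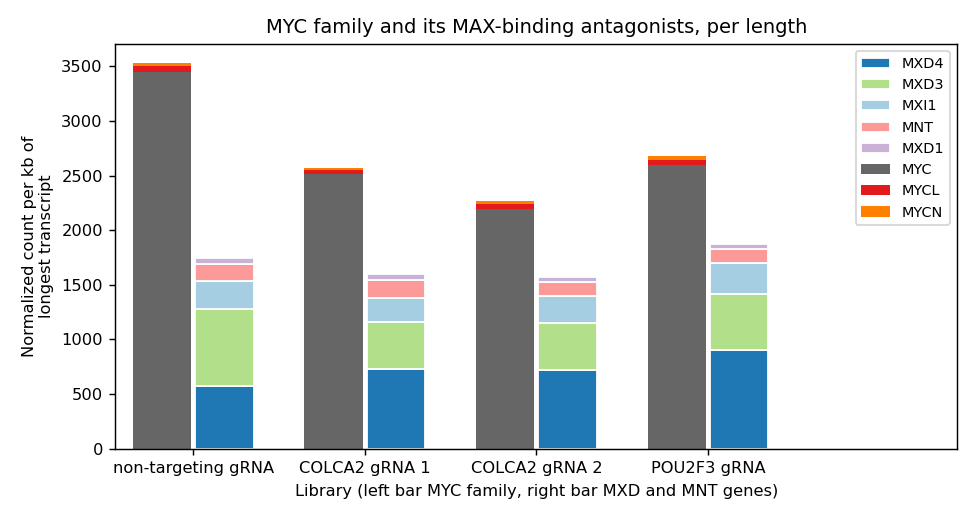
Stacked normalized counts per kb of the longest transcript for the MYC family (left bar of each pair) and for MXD1, MXI1, MXD3, MXD4 and MNT (right bar) in the 4 libraries. The MYC family bar is highest in the control at 3527 per kb, and within the right bars the MXD3 part is largest there and the MXD4 part largest in the other libraries.

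Summed per kb, the MYC family stood 2.02-fold above the 5 antagonists in the control, and between 1.43-fold (with the POU2F3 guide) and 1.605-fold (with COLCA2 guide 1) above them in the gene-targeted libraries. With the median transcript length in place of the longest, the same quotients were 0.79, 0.54, 0.49 and 0.49, so the order of the groups rests on the length used. The control had the highest quotient with either length. Within the antagonists, MXD3 held the largest part in the control, at 699 per kb against 579 for MXD4, and MXD4 the largest part in the others, at 724 to 904 per kb against 424 to 516. That order also rests on the length used: with the median length MXD4 was ahead in every library.

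The differences were then set beside those of all 14940 genes. The largest log2 ratio to the control was 0.75 with the POU2F3 guide (MYCN), and -0.76 and 0.75 with COLCA2 guide 1 (MYCL) and 2 (MYCN). At a 1.5-fold threshold MYCN and MXD4 passed upwards with the POU2F3 guide, where 12.2% of genes did, and MXD3 passed downwards with both COLCA2 guides, where 6.03% did. With all 3 gene-targeted libraries below the control stood 4 of the 10 genes (MYC, MYCL, MXD1 and MXD3), against 35.3% of all genes. With all 3 above it stood 3 of the 10 (MYCN, MAX and MXD4), against 34.4%. Both shares were near the background. The ratios share 1 non-targeting library, so sameness of direction among them is partly built in.

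A count test was also tried: the quasi-likelihood test of edgeR, with Benjamini-Hochberg adjustment, on the reads recovered from the normalized counts. Its spread came only from the COLCA2 pair, which used different guides, and the control is 1 library. No comparison with the control thus measures the spread between control cultures, and the calls below are no test of a knockout's effect. For the COLCA2 guides it called 3 of the 10 genes, beside 18.9% of all genes: MXD3 (adjusted p = 0.0048, edgeR), MYC (adjusted p = 0.0125, edgeR) and MXD4 (adjusted p = 0.0473, edgeR). DESeq2 called MXD3 and MYC, beside 12.6% of all genes, and gave MXD4 an adjusted p of 0.107. For the POU2F3 guide, where the test compares 2 libraries and not conditions, both tools called MXD4 alone of the 10, beside 12.4% of all genes for edgeR and 8.86% for DESeq2.

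The POU2F3 guide library was then set directly against the COLCA2 libraries, without use of the control. The POU2F3 guide library was above both guides for MYC, MYCN, MGA, MXD3, MXD4 and MXI1, 6 of the 10 against 35.6% of all genes, and below both for MAX and MXD1, against 38.9%. The MYCN values with the POU2F3 guide and COLCA2 guide 2 were equal within counting error. MGA lay apart from both, at 150% (interval 134% to 167%) of COLCA2 guide 1 and 133% (120% to 149%) of COLCA2 guide 2, while COLCA2 guide 1 stood at 89.2% of COLCA2 guide 2 (78.7% to 101%). MXD4 stood at 123% and 125% of the guides and MXD3 at 120% and 122%, while for both genes COLCA2 guide 1 stood at 101% of COLCA2 guide 2. MYC was at 103% of COLCA2 guide 1, an interval of 99.8% to 107% that included 100%, and at 119% of COLCA2 guide 2. Neither the edgeR test nor DESeq2 called any of the 10 genes in this comparison. Over all genes edgeR called 0.341% and DESeq2 0.957%.

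**Figure D4:**
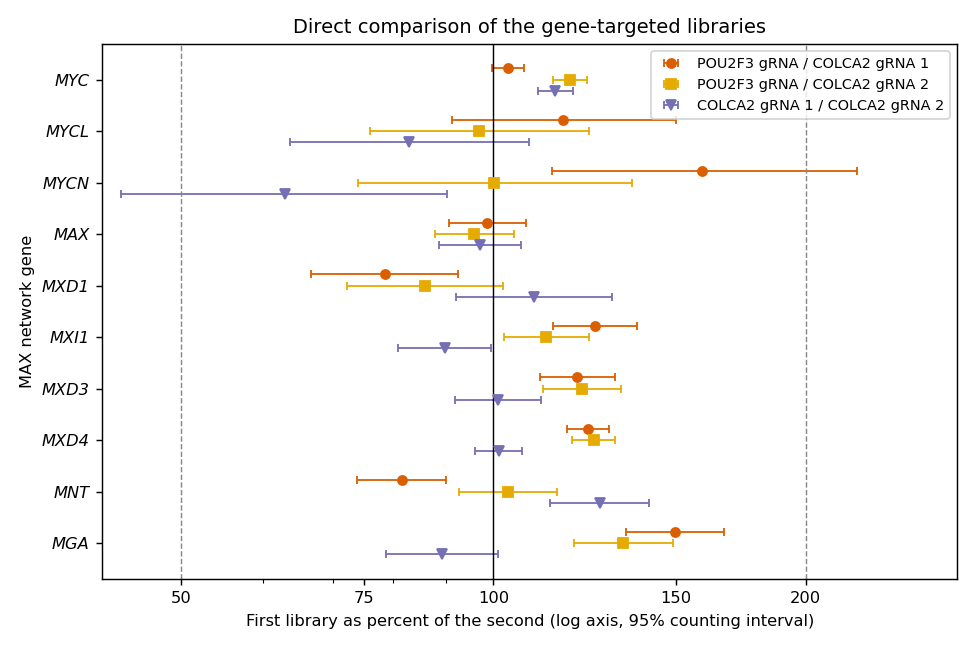
Each gene in the POU2F3 guide library as a percent of COLCA2 guide 1 and of COLCA2 guide 2, and COLCA2 guide 1 as a percent of COLCA2 guide 2 (log axis, 95% counting intervals, dashed lines at 2-fold). The intervals of MGA, MXD3, MXD4 and MXI1 lie right of 100% against both guides, and MYCN and MNT show the widest gaps between the guides.

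The guides differed from each other by more than counting error at MYC, MNT, MYCN and MXI1. How many of all genes did so was not counted, so this rule does not set these genes apart from others. MYC and MNT were higher with COLCA2 guide 1, at 115% and 127% of COLCA2 guide 2, and MYCN and MXI1 were lower, at 63.0% and 89.7%. The median absolute log2 difference between the guides was 0.16 over the 10 genes and 0.13 over all 14940. Among genes in the same range of mean count, its 90th percentile was 0.21 for MYC, 0.72 for MYCN and 0.33 for MNT and MXI1. The log2 differences of guide 1 from guide 2 were 0.20 for MYC, -0.66 for MYCN, 0.34 for MNT and -0.16 for MXI1. In size, MNT thus lay just beyond that percentile, and MYC, MYCN and MXI1 lay within it. The POU2F3 transcript itself differed between these libraries, at 156% with COLCA2 guide 1 of its level with COLCA2 guide 2, and its part in the differences between guides was not tested.

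The wider pathway was read from gene lists taken from general knowledge, but chosen with earlier results of these data known. Counts over these lists, set beside shares of all genes, therefore describe the lists and test nothing. Of all genes, 9.77% were 2-fold apart with the POU2F3 guide and 7.81% with both COLCA2 guides. The MLX arm, a parallel network that senses glucose, had 3 of 3 genes below the control in all 3 libraries, where 35.3% of all genes were, 1 of them by very little. MLXIPL (ChREBP) had log2 ratios of -0.36 with the POU2F3 guide and -0.52 with the COLCA2 guides on average, MLX had -0.22 and -0.16, and MLXIP had -0.0039 and -0.085. Of 14 MYC co-activators, none was 2-fold apart with either target, and 8 were below the control in all 3 libraries and none above, beside 35.3% and 34.4% of all genes. The lowest were the chromatin reader BPTF (-0.27 and -0.31), the acetyltransferase KAT2A (-0.46 and -0.13) and the adaptor WDR5 (-0.33 and -0.23). RUVBL2 (-0.07 and 0.10) and ACTL6A (0.05 and -0.04) were among the highest. The list's median log2 ratio was -0.19 with the POU2F3 guide and -0.18 with the COLCA2 guides, beside -0.0037 and -0.0087 over all genes.

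Among 10 co-repressors of MXD and MNT, none was 2-fold apart, and the medians were -0.046 and -0.14. SIN3B was highest (0.17 with the POU2F3 guide, 0.24 with the guides), and HDAC2, SUDS3 and RBBP4 were lowest, with log2 ratios with the guides of -0.25, -0.31 and -0.26. The 9 partners of MGA in PRC1.6 also held no 2-fold change. RING1 stood at 0.18 and 0.29 and the reader protein CBX3 at -0.23 and -0.22, and the medians were -0.068 and -0.061. Of 12 regulators of MYC protein turnover none reached 2-fold, with 7 below the control in all 3 libraries and 4 above, beside 35.3% and 34.4% of all genes. FBXW7, the ubiquitin ligase subunit that targets phosphorylated MYC, had log2 ratios of -0.55 and -0.61. SKP2, another such subunit, had -0.55 and -0.48, and the deubiquitinase USP28 had -0.34 and -0.42. PPP2R5A, TRIM32 and GSK3B were the highest, between 0.07 and 0.29.

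**Figure D5:**
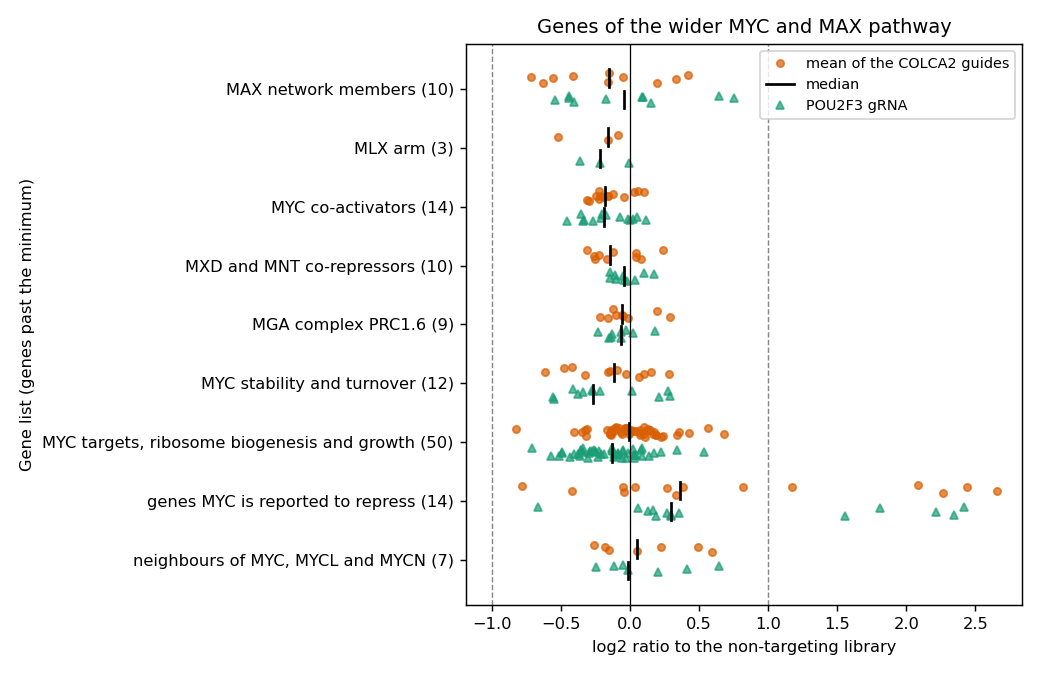
log2 ratios to the control for every gene past the minimum in 9 lists, as the mean of the COLCA2 guides (circles) and with the POU2F3 guide (triangles), with list medians as bars and dashed lines at 2-fold. The list of genes reported as repressed by MYC is the one with points beyond a dashed line, 5 with each target.

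A list of 50 known MYC targets in ribosome biogenesis and growth held no gene 2-fold apart with the POU2F3 guide or with both COLCA2 guides. Its median log2 ratio was -0.13 with the POU2F3 guide and -0.0080 with the COLCA2 guides, where the SD between the guides' medians was 0.029. ODC1, the first enzyme of polyamine synthesis and a textbook MYC target, had -0.71 and -0.41. GNL3 (nucleostemin) had -0.49 and -0.35, and the hexokinase gene HK2 had -0.49 and -0.32. The transferrin receptor gene TFRC (0.54 and 0.68), the glycolytic gene ENO1 (0.34 and 0.56) and AIMP2 (0.17 and 0.43) were the highest.

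For the same 50 targets the POU2F3 library was set directly against the COLCA2 libraries, a comparison added after the data were seen. Of the 50 targets, 41 were lower with the POU2F3 guide than with both guides, where 38.9% of all genes were. Higher than both guides were 5, beside 35.6% of all genes. The median log2 difference from the mean of the guides was -0.21, beside -0.0039 over all genes, and was -0.23 against guide 1 and -0.17 against guide 2. The MYC transcript in the same comparison had a log2 difference of 0.15. The antagonists lay on both sides, with log2 differences of 0.31 for MXD4, 0.28 for MXD3, 0.25 for MXI1, -0.12 for MNT and -0.28 for MXD1.

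Of 14 genes that are reported to be repressed by MYC, 5 were at least 2-fold higher with the POU2F3 guide and the same 5 with both COLCA2 guides: CDKN1A, CDKN2B, NDRG1, GADD45B and HES1. Of all genes, 6.73% and 5.79% were that much higher. None of the 14 was 2-fold lower. CDKN2B, which encodes the CDK inhibitor p15, had normalized counts of 214.9 in the control, 1078 and 1267 with COLCA2 guides 1 and 2, and 998.8 with the POU2F3 guide. GADD45B, a stress-response gene, had 137.5, 880.2, 865.6 and 702.5, and HES1 had 1205, 5700, 5868 and 6436. These genes are known to answer to several regulators: HES1 is best known as a Notch target and CDKN1A as a p53 target. The part of MYC or of any other regulator in these values was not tested. BTG1 was the lowest of the list, with log2 ratios of -0.66 and -0.78, and CDKN1C was higher with the POU2F3 guide (0.19) and lower with the guides (-0.42). The median was 0.30 with the POU2F3 guide and 0.36 with the guides.

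The 7 listed neighbours of the MYC genes that were found in the tables were read as well. Next to MYC, LRATD2 had a normalized count of 3074 in the control, 4179 and 4471 with the COLCA2 guides and 4810 with the POU2F3 guide, the opposite side from MYC. Next to MYCL, RLF had log2 ratios of -0.24 with the POU2F3 guide and -0.26 with the guides, on the same side as MYCL, whereas CAP1 had 0.41 and 0.60, PPT1 0.20 and 0.23 and TRIT1 -0.012 and -0.18. Next to MYCN, NBAS had -0.11 and -0.15. None of the 7 was 2-fold apart.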

How the data were processed

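Each deposited file holds 1 normalized count for every gene, per the file headers, which is a linear signal. The submitters' processing notes name Salmon, DESeq2 and the build hg38, with no role or order. All values (100%) were multiples of a library's smallest value by a whole number (tolerance 1e-04), so the authors' signal is reads divided by a library factor; Salmon's estimated counts may have been rounded first. Rows of the same symbol were summed. Log2 ratios used a pseudocount of 1. The 2-fold threshold carries no test. The POU2F3 and non-targeting groups hold 1 library each. Intervals are 95% exact (Clopper-Pearson) and cover counting error only.

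The count test was run as an alternative on the recovered reads with edgeR 4.0.16 (TMM, 3 groups, 1 residual degree of freedom, adjusted p under 0.05, where 2831 genes were called for COLCA2 and 1858 for POU2F3) and DESeq2 1.42.0. The scripts were tested on simulated data. Positions and lengths come from GENCODE release 29 (GRCh38), promoters from RefSeq (GRCh38.p14). Members and lists were chosen with earlier results of these data known. All 10 network genes were named; in each longer list, the 3 lowest and 3 highest genes by the mean of both targets' ratios. Genes with a pattern like a member's were to be named for members 2-fold apart, and there were none. Some genes that this rule names are not reported here. The COLCA2 libraries used different guides, and no guide has more than 1 library. The spread between cultures given the same guide was thus not measured.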

Additional observations from a re-analysis of the deposited data

How the results depend on the processing

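No paired analysis was possible because POU2F3 gRNA and the control have 1 library each. The count of network genes 2-fold apart was 0 in each comparison and stayed at 0 under every scaling and pseudocount and without either guide. A 4-fold threshold could not raise it. Nor could another minimum or choice of rows, because all 10 genes passed the minimum of 20 and had 1 row each. A 1.5-fold threshold gave 2 for POU2F3 gRNA and 1 for both COLCA2 guides. The edgeR test gave 1 for POU2F3 gRNA and 3 for COLCA2 gRNA, and DESeq2 gave 1 and 2; these rules ask for less than 2-fold. Scaling to library totals moved the median of the MYC target list to -0.16 with POU2F3 gRNA and -0.077 with COLCA2 gRNA, as it moved the median of all genes to -0.038 and -0.078. Without a guide the COLCA2 median ran from -0.027 to 0.014, and its mean was 0.0056, so its sign is not settled. The median difference of the target list between POU2F3 gRNA and the guides, an alternative set chosen after seeing the data, ran from -0.23 to -0.17. Of 30 ratios of network genes, 27 kept their sign under all alternatives; the exceptions, each on leaving out a guide, were MYCL and MNT between POU2F3 gRNA and the guides and MNT with COLCA2 gRNA. Counting limits MYCN and MYCL, with 55 to 209 reads.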
